A study of Mus musculus with 36 samples.

Results

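Aminoacyl-tRNA synthetases are the enzymes that join each amino acid to its transfer RNA. Rows for 36 of their genes, 20 cytosolic and 16 mitochondrial, were taken by symbol from a table of 24319 gene symbols measured in mouse gastrocnemius muscle, and all 36 passed the filter used for testing. The symbols are older ones (Kars, for example, in place of Kars1), and a final 2 in a symbol marks an enzyme of the mitochondrial matrix. They were chosen by name and not by any measured value.

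A synthetase activates its amino acid with ATP and passes it to the matching tRNA, and the accuracy of this step sets the accuracy of protein synthesis. In mammals several cytosolic synthetases sit in a multi-synthetase complex held together by the scaffold proteins Aimp1, Aimp2 and Eef1e1, while others act as free enzymes, and the mitochondrial enzymes are encoded in the nucleus, made in the cytosol and imported. Many cytosolic synthetase genes are known targets of the transcription factor ATF4, which is made when amino acids are scarce, and muscle is a tissue of high protein turnover and dense mitochondria.

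The gastrocnemius, a calf muscle, came from mice that lack Bmal1, without which the molecular clock stops, in liver alone (Bmal1hep-/-) and from wild-type (WT) mice. Each genotype was sampled at zeitgeber time (ZT, hours) 0, 4, 8, 12, 16 and 20 with 3 biological replicates, which makes 12 groups and 36 libraries, 18 per genotype. The comparison asks how loss of the liver clock bears on transcript rhythms in muscle. The sources used here do not state the Cre driver, age, sex, feeding or lighting of the mice. In the tests, p-values measure the spread between the libraries named as biological replicates.

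Values were FPKM (fragment counts scaled by transcript length and library size), which allows levels of different genes to be compared per length. Read totals are unknown, but the steps between low values gave relative depths down to 58.0% of the deepest library, with medians of 73.7% in Bmal1hep-/- and 68.9% in WT. Replicates of a group correlated at 0.96 to 0.992 over tested genes. Muscle fibre transcripts were abundant (Ckm had a median of 21770 FPKM), although Myh4, a fast myosin, was listed at 0 in 34 libraries and Acta1 at 0 in 1. Markers of liver cells summed to 0.129 to 16.5 FPKM in Bmal1hep-/- and 0.267 to 257 FPKM in WT, and Fgb had a median of 0 in both. Arntl is the older symbol of Bmal1, and its level in muscle does not check a deletion made in liver. Arntl differed by 0.01 ± 0.07 (SE, log2) between Bmal1hep-/- and WT muscle over all times (adjusted p = 0.979, limma). It cycled in both genotypes, and Dbp, a clock output, did so too, with fitted peaks at 9.87 h in Bmal1hep-/- and 9.92 h in WT. In earlier results of these data 6 libraries stood apart, by markers of other cells or by how short transcripts compared with long ones: Bmal1hep-/- ZT4 replicate 1, ZT8 replicate 2, ZT12 replicate 2, ZT16 replicate 3 and ZT20 replicate 3, and WT ZT8 replicate 3. Some libraries outside this list also lay far out. WT ZT12 replicate 1 had the highest sum of nerve markers in WT (625 FPKM). The Spearman rho of level with transcript length was -0.427 in WT ZT20 replicate 3 and -0.405 in WT ZT16 replicate 3. It was -0.262 in the listed WT library and -0.603 in the listed Bmal1hep-/- ZT12 replicate 2. Results without the 6 libraries rest on this choice.

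The cytosolic enzymes formed a narrow band of moderate transcript levels, and the mitochondrial enzymes spread lower and wider. Mean levels over the 36 libraries ran from 12.34 FPKM for Lars to 55.62 FPKM for Kars among the 20 cytosolic genes, with a median of 27.5 FPKM. Among 15 mitochondrial genes they ran from 1.603 FPKM for Ears2 to 23.03 FPKM for Iars2, with a median of 7.98 FPKM. The remaining mitochondrial gene, Lars2, which charges leucine in the matrix, stood at 227.7 FPKM and is taken up separately below. The median over all 10837 genes tested was 7.6 FPKM.

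Lysine is charged in both compartments by products of the single gene Kars, the highest cytosolic member. Its level had a lowest, median and highest value of 44.14, 54.85 and 70.61 FPKM in Bmal1hep-/- and 46.4, 55.99 and 62.74 FPKM in WT. Nars, for asparagine, followed with 42.19, 48.17 and 56.96 FPKM in Bmal1hep-/- and 45.22, 49.88 and 57.7 FPKM in WT. Eprs, a fusion of the glutamate and proline enzymes, had a mean of 43.94 FPKM, and its range overlapped with that of Nars. The 3 lowest members were mitochondrial. Ears2, for glutamate, lay between 1.297 and 1.981 FPKM in Bmal1hep-/- and between 1.19 and 1.841 FPKM in WT. Wars2, for tryptophan, lay between 1.15 and 2.19 FPKM in Bmal1hep-/- and between 1.281 and 2.111 FPKM in WT, and Nars2, for asparagine, between 1.376 and 2.532 FPKM in Bmal1hep-/- and between 1.624 and 2.555 FPKM in WT. The ranges of these 3 genes overlapped in both genotypes, so their order is not set beyond their spread.

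**Figure D1:**
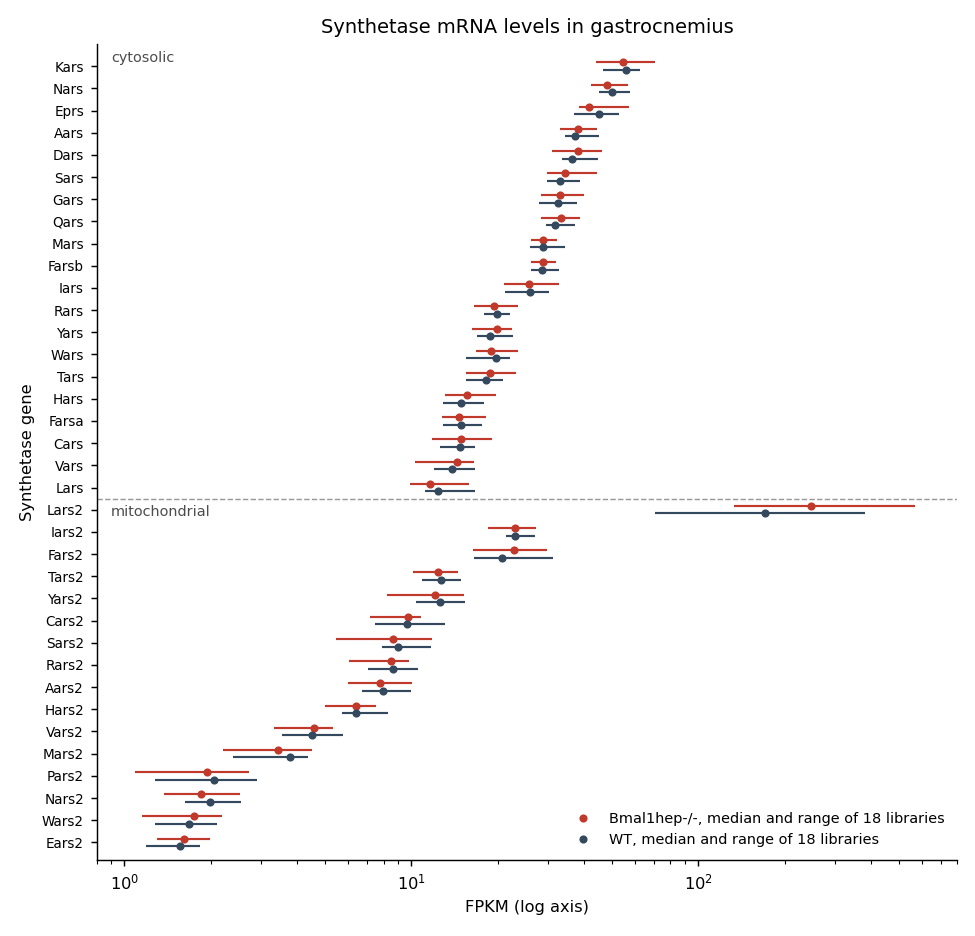
Level of each synthetase transcript in FPKM (log axis), with the median as a point and the lowest to highest library as a line, for 18 Bmal1hep-/- libraries (red) and 18 WT libraries (dark blue). The 20 cytosolic genes lie between means of 12.34 and 55.62 FPKM, Lars2 stands far above the other mitochondrial genes, and the 2 genotypes overlap for every gene.

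Where an amino acid has a cytosolic and a mitochondrial enzyme encoded by separate genes, the cytosolic transcript was the higher one in 12 of 14 pairs, and in 11 pairs it was higher in each of the 36 libraries. The ratio of mean levels was 25.7 for Nars over Nars2, 11.2 for Wars over Wars2 and 8.16 for Mars over Mars2, and 1.13 for Iars over Iars2, where the cytosolic transcript was higher in 33 libraries. The 2 exceptions were leucine, where Lars stood at 0.0542 of Lars2, and phenylalanine, where Farsa stood at 0.69 of Fars2. The cytosolic phenylalanine enzyme is built from 2 kinds of subunit, and its alpha subunit transcript Farsa was at 0.527 of the beta subunit transcript Farsb. The direction of the phenylalanine pair turned with the subunit, since Farsb averaged 28.89 FPKM and Fars2 22.07 FPKM. By genotype, the ratio of Nars over Nars2 was 26.2 in Bmal1hep-/- and 25.2 in WT, and that of Lars over Lars2 was 0.0466 in Bmal1hep-/- and 0.0639 in WT, with no test made of them.

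Transcripts of the cytosolic enzymes also varied little from library to library. The standard deviation of log2(FPKM + 1) over the 36 libraries ran from 0.085 for Farsb to 0.154 for Lars, with a median of 0.123, and for all 20 it was below 0.188, the median over all tested genes. Among the 15 mitochondrial genes other than Lars2 it ran from 0.1 for Ears2 to 0.225 for Fars2, with a median of 0.152. Of these 15, 11 also lay below 0.188, and for Lars2 the value was 0.561. The median over all tested genes was not matched for level, and the cytosolic genes had a median level of 27.5 FPKM beside 7.6 FPKM. The highest library exceeded the lowest by 1.25-fold for Farsb, 1.69-fold for Lars, 2.66-fold for Pars2 and 8.05-fold for Lars2.

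Deletion of Bmal1 in liver went with no detectable change of any synthetase transcript in muscle when the 6 times were averaged. The count was 0 of 36 at an adjusted p under 0.05 in limma, beside 0% of the 10837 tested genes; 1 member, Lars2, had an unadjusted p under 0.05, beside 8.37% of tested genes. The fitted difference between Bmal1hep-/- and WT lay between -0.09 and 0.06 on the log2 scale for the 35 members other than Lars2. Its 95% interval stayed within 0.2 in either direction for 32 of 36 members, among them all 20 cytosolic ones, and it held 0 for 35. In bulk muscle, fewer cells of a type and less RNA per cell cannot be told apart.

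After Lars2, the smallest p-values belonged to Lars, Nars2 and Rars2. Lars, the cytosolic leucine enzyme and a known leucine sensor of the growth pathway mTORC1, had a lowest, median and highest level of 9.865, 11.62 and 15.91 FPKM in Bmal1hep-/- and 11.2, 12.43 and 16.63 FPKM in WT. Its difference was -0.09 ± 0.05 (SE, log2; adjusted p = 0.708, limma). Nars2 differed by -0.07 ± 0.04 (adjusted p = 0.721) and Rars2, the mitochondrial arginine enzyme, by -0.09 ± 0.06 (adjusted p = 0.722). In all 3 the genotypes overlapped, and none of these values is a change.

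Fitted differences were below 0 for 13 of 16 mitochondrial members (median -0.03) and 11 of 20 cytosolic members (median -0.00204), beside 51.6% of all tested genes (median -0.00283). These counts include members of any p. Without the 6 libraries that stood apart they were 10 of 16 and 5 of 20, beside 49.1% of all tested genes, and the cytosolic median was above 0 there, after median-of-ratios rescaling, quantile normalization and removal of the length trend, and with array weights. Within the cytosolic set, 6 of the 8 enzymes of the multi-synthetase complex were below 0 (median -0.01), as were 5 of the 12 others (median 0.02). By structural class, 13 of 18 class I enzymes and 10 of 17 class II enzymes were below 0, with Eprs, which joins both classes, left out.

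**Figure D2:**
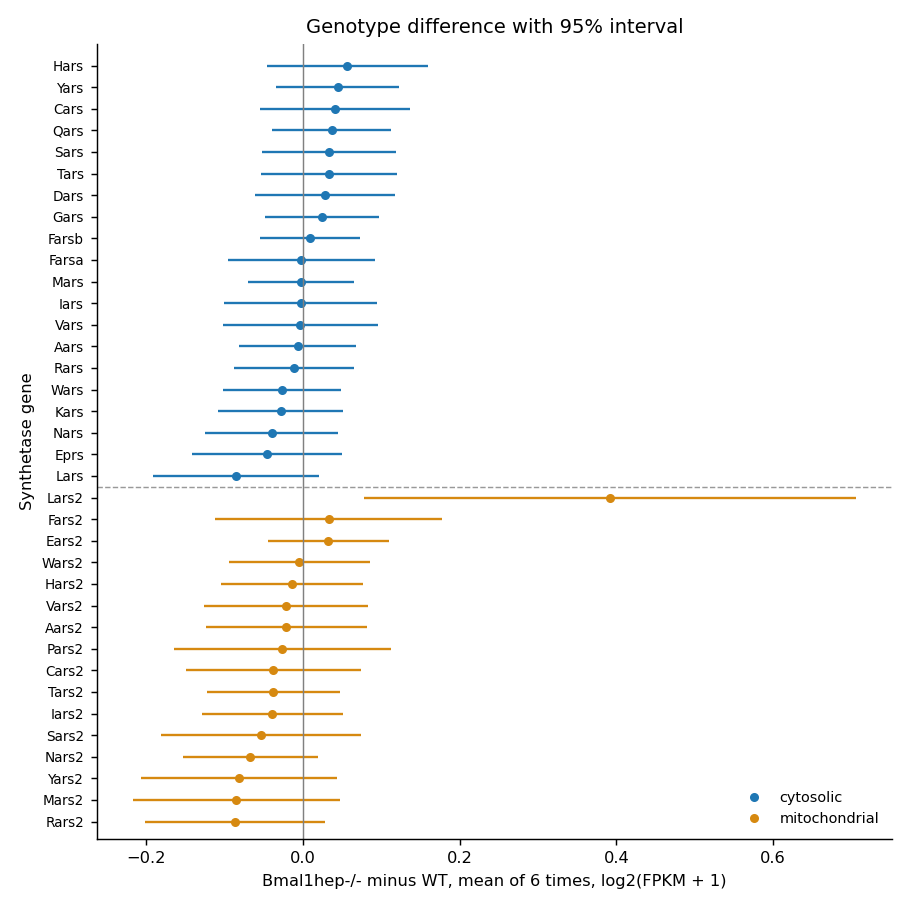
Difference between Bmal1hep-/- and WT muscle for each synthetase, averaged over 6 times, on the log2(FPKM + 1) scale, with lines for the 95% interval (limma); 36 libraries. All intervals but that of Lars2 cross 0, and all 20 cytosolic intervals lie within 0.2 of it.

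Lars2 was the member with the largest fitted difference. Its lowest, median and highest levels were 133, 247.1 and 570 FPKM in Bmal1hep-/- and 70.83, 171.2 and 381.1 FPKM in WT, and the ranges overlapped. The difference over all times was 0.39 ± 0.15 (SE, log2; 95% interval 0.08 to 0.71), which did not pass the test (adjusted p = 0.444, limma). At ZT0 the levels were 281, 288 and 315 FPKM in Bmal1hep-/- and 121, 172 and 196 FPKM in WT, and at ZT4 they were 255, 224 and 214 FPKM in Bmal1hep-/- and 166, 165 and 163 FPKM in WT. At both of these times all Bmal1hep-/- libraries lay above all WT libraries. At ZT8 the levels were 133, 570 and 286 FPKM in Bmal1hep-/- and 146, 140 and 170 FPKM in WT, and at ZT20 they were 260, 166 and 210 FPKM in Bmal1hep-/- and 229, 304 and 315 FPKM in WT. The genotypes overlapped at ZT8 and ZT20. At ZT12 the levels were 239, 328 and 217 FPKM in Bmal1hep-/- and 70.8, 121 and 245 FPKM in WT, and at ZT16 they were 143, 291 and 197 FPKM in Bmal1hep-/- and 218, 381 and 258 FPKM in WT. Bmal1hep-/- libraries were thus mostly the higher ones at ZT12 and mostly the lower ones at ZT16, with overlap at both times. The difference was 0.88 ± 0.37 at ZT0 (adjusted p = 1), 1.00 ± 0.37 at ZT12 (adjusted p = 0.686) and -0.46 ± 0.37 at ZT16 (adjusted p = 1). Its variation with time did not pass (adjusted p = 0.899), except with array weights (adjusted p = 0.039), whose fit gave a convergence warning.

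The level of Lars2 followed that of Rn45s, the ribosomal RNA precursor, across libraries. Over 36 libraries Pearson's r of their log2 levels was 0.903 and Spearman's rho 0.889 (permutation p = 1e-05 for each, the smallest that 100000 permutations can give; adjusted p = 0.00036 over 36 members). It was 0.873 without the 2 libraries farthest from the median of Rn45s, 0.885 within Bmal1hep-/-, 0.907 within WT and 0.833 after removal of the 12 group means. Of 10836 other tested genes, Rn45s had the highest r with Lars2, and Rps13, a ribosomal protein gene, came next at 0.708. For the other 35 members r with Rn45s ran from -0.574 for Eprs to 0.517 for Farsa. Among them Eprs, Farsa, Lars and Aars2 also passed by Pearson's r (permutation, adjusted p = 0.00432, 0.0158, 0.0286 and 0.0367). By Spearman's rho Eprs alone of these did (permutation, adjusted p = 0.00342). Lars2 stood at 4.42% to 8.8% of the Rn45s value in Bmal1hep-/- and at 5.01% to 8.54% in WT.

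Rn45s itself lay between 1890 and 12530 FPKM in Bmal1hep-/- and between 1415 and 4906 FPKM in WT, with a difference of 0.55 ± 0.16 (SE, log2; adjusted p = 0.28, limma). The longest protein-coding GENCODE transcript of Lars2, of 3894 bases, holds stretches of 97, 72 and 50 bases that match the noncoding genes AA474408 and Gm15564 at 94.8%, 98.6% and 96% identity, all between its bases 3163 and 3349. Whether reads from ribosomal RNA were counted as Lars2 was not tested, and the level of Lars2 mRNA is uncertain.

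**Figure D3:**
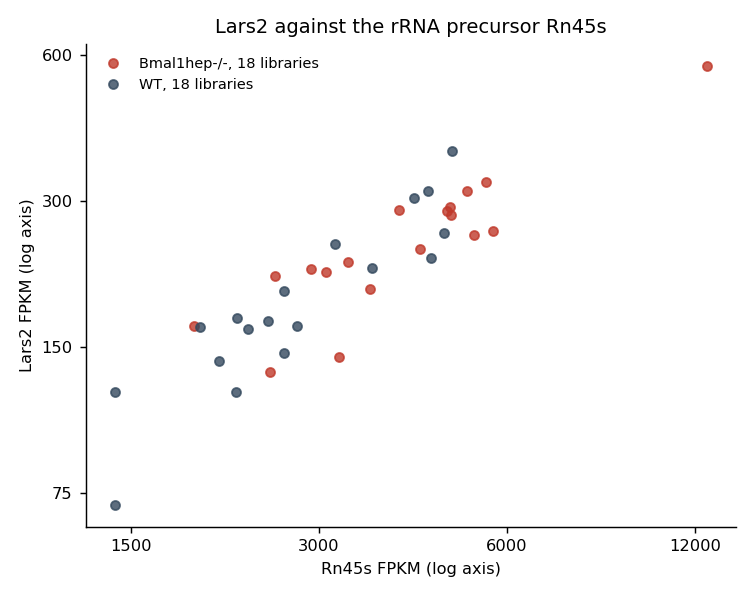
Lars2 against Rn45s in FPKM (both axes log), 1 point per library, 18 Bmal1hep-/- libraries in red and 18 WT libraries in dark blue. The points of both genotypes fall along 1 rising band (r = 0.903 on the log2 scale), with Bmal1hep-/- ZT8 replicate 2 at the top right with 12530 FPKM of Rn45s and 570 FPKM of Lars2.

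At single times no synthetase passed the test either: the count was 0 of 36 at each of the 6 times at an adjusted p under 0.05 (limma), beside 0% of all tested genes at every time. Members with an unadjusted p under 0.05 numbered 1, 2 and 2 in the first 3 times (ZT0, ZT4 and ZT8), beside 2.2%, 9.06% and 3.08% of tested genes, and 2, 0 and 4 in the last 3 (ZT12, ZT16 and ZT20), beside 7.25%, 2.45% and 12.6%. Members whose 3 libraries of one genotype all lay beyond the 3 of the other made up 11.1%, 19.4%, 8.33%, 2.78%, 25% and 11.1% of the 36, beside 12.3%, 15.3%, 6.54%, 8.8%, 9.44% and 11.2% of tested genes. Fitted differences below 0, whatever their p, were found in 5 cytosolic and 12 mitochondrial members for ZT0 (47.5% of tested genes), 9 and 8 for ZT4 (50.5%), 8 and 11 for ZT8 (54%), 11 and 9 for ZT12 (53.2%), 15 and 9 for ZT16 (46.1%) and 9 and 11 for ZT20 (49.5%). For libraries that did not overlap, the share at ZT16 was the one farthest above the background. There, Farsb, Iars, Kars, Rars, Nars2 and Rars2 were lower in all Bmal1hep-/- libraries, and Dars, Yars and Ears2 were higher, yet no member reached an unadjusted p under 0.05.

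Sars2, which charges mitochondrial serine tRNA, had the smallest p of any single time, at ZT20. Its levels were 7.91, 7.72 and 5.47 FPKM in Bmal1hep-/- and 9.22, 10.1 and 10.5 FPKM in WT, so that no library overlapped. The difference was -0.46 ± 0.15 (SE, log2; adjusted p = 0.354, limma), and -0.31 without Bmal1hep-/- ZT20 replicate 3, the lowest library. At ZT16 the Sars2 levels were 9.5, 11.3 and 8.75 FPKM in Bmal1hep-/- and 8.2, 8.95 and 10.6 FPKM in WT, and the groups overlapped there.

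Kars was second, also at ZT20, with 52.2, 44.1 and 45.5 FPKM in Bmal1hep-/- and 55.2, 52.9 and 62.7 FPKM in WT. All Bmal1hep-/- libraries were below all WT libraries, with a difference of -0.26 ± 0.10 (adjusted p = 0.359, limma). At ZT12 the order was the other way, with 65.7, 70.6 and 53 FPKM in Bmal1hep-/- and 58.3, 52.8 and 53.9 FPKM in WT, but there the groups overlapped. A variation of the Kars difference with time did not pass the test (adjusted p = 0.899, limma). The exception was the fit with array weights, which gave a convergence warning (adjusted p = 0.00691). Vars2 and Aars2, for mitochondrial valine and alanine, completed the 4 members at ZT20, with differences of -0.27 ± 0.13 (adjusted p = 0.388) and -0.26 ± 0.12 (adjusted p = 0.39).

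Nars2 at ZT12 had 2.25, 1.38 and 1.79 FPKM in Bmal1hep-/- and 2.55, 2.33 and 2.28 FPKM in WT. The groups did not overlap there, and the difference was -0.28 ± 0.10 (adjusted p = 0.686, limma), which did not pass. It ran from -0.41 to -0.06 under the alternatives and from -0.39 to -0.17 when single libraries were left out. The lowest level, 1.38 FPKM, was that of Bmal1hep-/- ZT12 replicate 2, which is among the 6 libraries that stood apart. The difference that varies with time passed in 0 of 36 members, beside 0% of tested genes, with 2 members (Lars2 and Kars) and 4.64% of genes at an unadjusted p under 0.05. Nars2 and Wars2 had the next smallest p-values (adjusted p = 0.899 each, limma).

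Libraries differed in how levels ran with transcript length, those of ZT20 among them. The Spearman rho of level with length over genes was -0.0257, 0.385 and 0.35 in the Bmal1hep-/- libraries of ZT20 and 0.182, 0.278 and -0.427 in the WT libraries. After removal of this trend the differences at ZT20 were -0.38 for Sars2 and -0.21 for Kars (adjusted p = 0.328 each, limma). Over the 36 libraries, levels of Kars, Aars2, Sars2 and Vars2 ran against this trend (r of -0.734, -0.693, -0.635 and -0.496). Whether the trend bears on the differences at ZT20 was not tested.

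**Figure D4:**
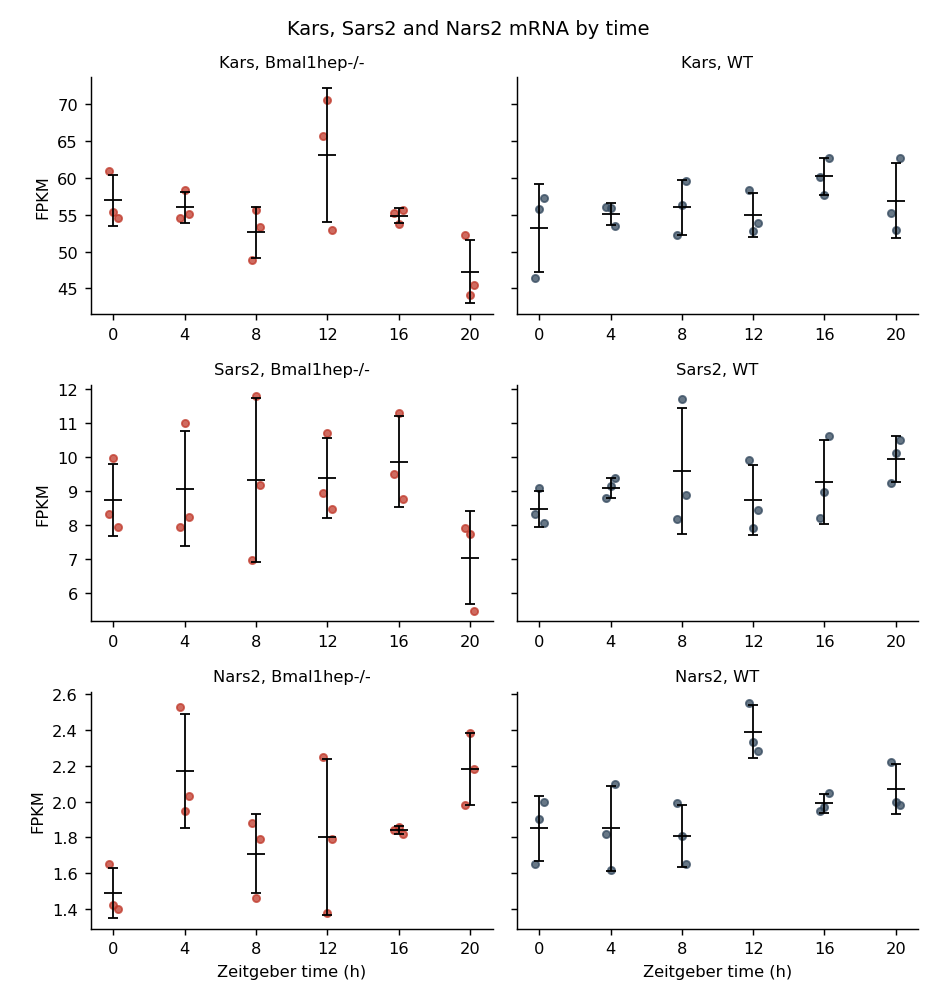
Levels of Kars, Sars2 and Nars2 in FPKM by zeitgeber time in Bmal1hep-/- (left, red) and WT (right, dark blue), 1 point per library with the mean and SD of 3 in black. At ZT20 the Bmal1hep-/- points of Kars and Sars2, and at ZT12 those of Nars2, lie below all WT points of that time; axes do not start at 0.

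Few synthetase transcripts passed the test for a rhythm of 24 h. In Bmal1hep-/- muscle 1 of 36 passed, Wars2, beside 5.47% of tested genes, and in WT 0 of 36 passed, beside 6.03%. At an unadjusted p under 0.05 the counts were 3 in Bmal1hep-/- (beside 16.3% of tested genes) and 5 in WT (beside 16.8%). In the mean of both genotypes 2 of 36 passed, Wars2 and Yars, beside 12.4%, and 5 had an unadjusted p under 0.05, beside 23%. No member passed for a difference in rhythm between genotypes (0 of 36 and 0% of tested genes, limma), and 1, Lars2, had an unadjusted p under 0.05, beside 4.01% of genes. The amplitude is the height of the fitted cosine above its midline. It had a median over the 20 cytosolic members of 0.05 in Bmal1hep-/- and 0.08 in WT, beside 0.09 over all tested genes in each genotype.

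Wars2 joins tryptophan to its tRNA in mitochondria and was one of the least abundant members. In Bmal1hep-/- its levels were 1.86, 1.82 and 1.4 FPKM in the ZT0 libraries, 1.46, 1.15 and 1.15 FPKM in the ZT4 libraries and 1.57, 1.36 and 1.77 FPKM in the ZT8 libraries, and then 1.72, 1.56 and 2.1 FPKM (ZT12), 1.94, 2.16 and 1.58 FPKM (ZT16) and 1.93, 1.99 and 2.19 FPKM (ZT20). In WT they were 1.56, 1.51 and 1.28 FPKM in the ZT0 libraries, 1.48, 1.57 and 1.84 FPKM in the ZT4 libraries and 1.68, 1.53 and 2 FPKM in the ZT8 libraries, and then 1.69, 1.67 and 2.01 FPKM (ZT12), 1.97, 2.11 and 1.97 FPKM (ZT16) and 1.78, 1.72 and 1.33 FPKM (ZT20). In Bmal1hep-/- the libraries of ZT4 were low and those of ZT20 high without overlap, and in WT those of ZT0 were low and those of ZT16 high without overlap.

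The cosine of Wars2 in Bmal1hep-/- had an amplitude of 0.18 ± 0.04 (SE, log2) and a peak at 17.2 ± 0.94 h (adjusted p = 0.0285, limma). In WT its amplitude was 0.11 ± 0.04 with a peak at 13.3 ± 1.48 h (adjusted p = 0.285), and the difference in rhythm did not pass (adjusted p = 0.913). In the mean of both genotypes the amplitude was 0.13 ± 0.03 and the peak 15.7 ± 0.92 h (adjusted p = 0.012). Since 1 is added before the logarithm and the level is near 2, these amplitudes understate the relative swing. The call in Bmal1hep-/- was lost when any of 5 Bmal1hep-/- libraries was left out (ZT4 replicate 2, ZT4 replicate 3, ZT8 replicate 2, ZT16 replicate 2 or ZT20 replicate 3; adjusted p = 0.0556 to 0.0854). It was also lost with quantile normalization (adjusted p = 0.0512), array weights (0.122), time as a factor (0.135) and the libraries of that genotype alone (0.168), and the call in the mean was lost with time as a factor (0.123).

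Yars, the cytosolic tyrosine enzyme, is not part of the multi-synthetase complex. Its levels in Bmal1hep-/- were 18.9, 16.6 and 20.9 FPKM in the ZT0 libraries, 16.3, 18.9 and 19.6 FPKM in the ZT4 libraries and 20.4, 20.0 and 18.7 FPKM in the ZT8 libraries, and then 20.7, 22.4 and 19.7 FPKM (ZT12), 20.7, 21 and 20.9 FPKM (ZT16) and 17.5, 21.9 and 16.9 FPKM (ZT20). In WT they were 18.2, 17.1 and 16.9 FPKM in the ZT0 libraries, 18.4, 20.3 and 17.4 FPKM in the ZT4 libraries and 17.2, 18.7 and 19.6 FPKM in the ZT8 libraries, and then 19.6, 21.9 and 22.6 FPKM (ZT12), 19.3, 19 and 20.3 FPKM (ZT16) and 19.4, 17.7 and 16.9 FPKM (ZT20). WT libraries of ZT12 lay above those of ZT0 without overlap, whereas in Bmal1hep-/- the libraries of ZT0 and ZT12 overlapped.

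In the mean of both genotypes Yars had an amplitude of 0.10 ± 0.03 (SE, log2) and a peak at 12.7 ± 0.96 h (adjusted p = 0.0163, limma). The single genotypes gave 0.10 ± 0.04 at 13.3 h in Bmal1hep-/- (adjusted p = 0.259) and 0.11 ± 0.04 at 12.2 h in WT (adjusted p = 0.17), and the difference in rhythm was 0.03 ± 0.05 (adjusted p = 0.965). Without the 6 libraries that stood apart the amplitude was 0.08 and the adjusted p was 0.0982, which ended the call, as did time as a factor (adjusted p = 0.145).

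The next members by p in the mean of both genotypes were Gars, for glycine, at 0.07 ± 0.02 with a peak at 12.1 h (adjusted p = 0.161, limma) and Pars2, for mitochondrial proline, at 0.13 ± 0.05 with a peak at 20.7 h (adjusted p = 0.181). In Bmal1hep-/-, Pars2 had 0.19 ± 0.07 (adjusted p = 0.206) and Aars2 0.11 ± 0.05 (adjusted p = 0.423). In WT, Lars2 had 0.49 ± 0.16 (adjusted p = 0.148), Gars 0.11 ± 0.03 (adjusted p = 0.156) and Farsb 0.09 ± 0.03 (adjusted p = 0.213). None of these passed, but with array weights Pars2 did in the mean of both genotypes (adjusted p = 0.0343) and Lars2 did in WT (adjusted p = 0.0345). That weighted fit gave a convergence warning. The vector between the rhythms of the genotypes had a length of 0.65 ± 0.22 for Lars2, 0.11 ± 0.04 for Farsb and 0.12 ± 0.05 for Gars (adjusted p = 0.913 each).

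**Figure D5:**
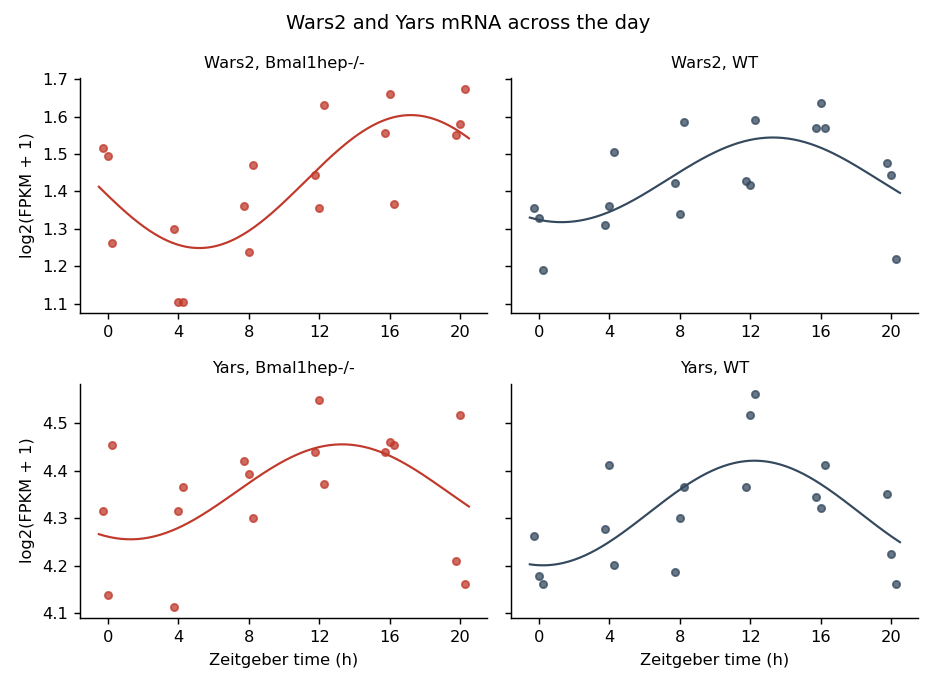
Wars2 and Yars as log2(FPKM + 1) by zeitgeber time in Bmal1hep-/- (left, red) and WT (right, dark blue), 1 point per library with the fitted 24 h cosine. The curve of Wars2 peaks at 17.2 h in Bmal1hep-/- and 13.3 h in WT, and that of Yars at 13.3 h in Bmal1hep-/- and 12.2 h in WT.

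Although most cosines did not pass, their fitted peaks lay mostly around ZT12 for the cytosolic enzymes. In the mean of both genotypes 18 of 20 cytosolic members peaked between 9 and 15 h, with Farsa and Wars outside, and 6 of 16 mitochondrial members did, beside 29% of all tested genes. With quantile normalization it was 15 of 20 cytosolic and 10 of 16 mitochondrial members, beside 28.1% of tested genes. With the length trend removed it was 18 of 20 and 9 of 16, beside 29.3%. With a filter at 5 FPKM it was 18 of 20 and 6 of 10, beside 33.7%. In single genotypes it was 8 of 20 cytosolic members in Bmal1hep-/- and 16 of 20 in WT, beside 24.6% of tested genes in Bmal1hep-/- and 28.8% in WT. The window was chosen after the peaks were seen, it counts peaks whose standard errors reach 17.2 h among the 36 members, and members share libraries, so the counts are a description. Leaving out single libraries gave 7 to 12 cytosolic members in Bmal1hep-/-, 16 to 18 in WT and 15 to 18 in the mean, and the difference between genotypes in these counts was not tested.

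Markers of other cells moved with time as well. Of 7 endothelial markers, 1 was called rhythmic in Bmal1hep-/- (5.47% of tested genes were), 3 in WT (6.03%) and 4 in the mean of both genotypes (12.4%). Their summed level was highest at ZT4, with a median of 115 FPKM in Bmal1hep-/- and 112 FPKM in WT, and lowest at ZT12, with 83.4 FPKM in Bmal1hep-/- and 80.1 FPKM in WT. Of 3 tested satellite cell markers 2 were called in that mean, and of 4 tested liver cell markers 1, Alb, was called in WT. None of the 10 muscle fibre, 7 adipocyte, 8 fibroblast, 6 macrophage, 6 nerve and 4 erythroid markers was called in any of these 3 tests. Their part in the rhythms of Wars2 and Yars was not tested.

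Promoter sequence is shown for the members with a called rhythm, and for those that hold the core of the amino acid response element, the site through which ATF4 acts. Promoters of 27 members were found in RefSeq (build GRCm38.p6), each from 250 bases before to 50 after the start of the gene. The promoters of Wars2 and Yars read as follows, 5′ to 3′, with a match to TGATGNAA in capitals (Wars2 had none):
Wars2 (chr3:99140840-99141139, plus strand): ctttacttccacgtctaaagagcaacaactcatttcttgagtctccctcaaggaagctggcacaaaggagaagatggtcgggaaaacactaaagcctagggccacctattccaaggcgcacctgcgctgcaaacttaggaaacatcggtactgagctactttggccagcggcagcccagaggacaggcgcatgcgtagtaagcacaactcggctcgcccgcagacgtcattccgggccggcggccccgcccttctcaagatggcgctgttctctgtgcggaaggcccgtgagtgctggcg
Yars (chr4:129189653-129189952, plus strand): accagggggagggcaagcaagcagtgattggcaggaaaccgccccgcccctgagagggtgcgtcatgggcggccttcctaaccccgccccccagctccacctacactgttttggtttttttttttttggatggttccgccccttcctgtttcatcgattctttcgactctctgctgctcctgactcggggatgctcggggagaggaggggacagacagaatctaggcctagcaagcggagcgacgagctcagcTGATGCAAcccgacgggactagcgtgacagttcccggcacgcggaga

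The element TGATGNAA, or TTNCATCA on the other strand, was present in 5 of the 27 promoters (18.5%), beside 3.97% of 32851 mouse promoters. All 5 belonged to cytosolic enzymes, Aars, Gars, Iars, Tars and Yars, out of 13 cytosolic and 14 mitochondrial members with a promoter. The windows of the other 4 genes, with the match in capitals, were:
Aars (chr8:111033714-111033753, plus strand): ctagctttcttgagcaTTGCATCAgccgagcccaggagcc
Aars (chr8:111033835-111033874, plus strand): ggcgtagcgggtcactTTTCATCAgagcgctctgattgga
Gars (chr6:55037955-55037994, plus strand): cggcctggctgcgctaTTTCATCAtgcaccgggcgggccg
Iars (chr13:49682121-49682160, plus strand): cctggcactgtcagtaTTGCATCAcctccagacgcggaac
Tars (chr15:11399650-11399689, minus strand): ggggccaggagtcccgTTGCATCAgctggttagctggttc

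The rhythm of Yars passed, as given above, and those of the other 4 genes did not. In the mean of both genotypes Aars, for alanine, had an amplitude of 0.06 ± 0.02 (adjusted p = 0.211, limma), and Iars and Tars, for isoleucine and threonine, had amplitudes of 0.05 ± 0.03 (adjusted p = 0.613, limma) and 0.06 ± 0.03 (adjusted p = 0.343). The E-box CACGTG, the motif bound by the clock factors BMAL1 and CLOCK, was in the promoters of Aars, Farsb, Iars, Tars and Ears2 (18.5%, beside 7.15% of all promoters). The D-box TTATGNAA (TTNCATAA on the other strand), bound by DBP, was in that of Vars2 alone (3.7%, beside 3.38%). The Wars2 promoter held none of the 3 motifs. Such matches describe the letters and do not show binding.

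Genes that act beside the synthetases gave few calls. Of 12 tested partners (scaffolds, amidotransferase subunits and related enzymes), 0 passed in any test (limma). For the genotype difference over all times 1 had an unadjusted p under 0.05, beside 8.37% of tested genes. Among 8 kinases, substrates and helpers of the eIF2 stress pathway, 8 cytosolic elongation factors and 10 mitochondrial translation factors the count was 0 for the genotype difference and for each rhythm test, with 0, 0 and 1 at an unadjusted p under 0.05 for the genotype difference. The last was Gfm1, a mitochondrial elongation factor, with -0.13 ± 0.04 (log2, adjusted p = 0.283), which did not pass. Of the 10 mitochondrial factors 8 were below 0, whatever their p, beside 51.6% of tested genes.

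Some genes of the ATF4 response cycled. Of 28 listed, 22 were tested and 0 passed for the genotype difference over all times (limma). There, 1 had an unadjusted p under 0.05, Chac1, at -0.69 ± 0.26, beside 8.37% of tested genes. For a rhythm 3 passed in Bmal1hep-/- (beside 5.47% of tested genes), 5 in WT (beside 6.03%) and 5 in the mean of both genotypes (beside 12.4%). The synthetases had 1, 0 and 2 of 36 in these tests, with no test made between the lists. Slc38a2, an amino acid transporter, had amplitudes of 0.60 ± 0.08 with a peak at 19.5 h in Bmal1hep-/- (adjusted p = 5.18e-06) and 0.55 ± 0.08 with a peak at 19.7 h in WT (adjusted p = 2.24e-05). Ddit4, an inhibitor of mTORC1, peaked at 12.0 h in Bmal1hep-/- and 13.1 h in WT, and Chac1, a glutathione-degrading enzyme, at 9.56 h in Bmal1hep-/- and 10.1 h in WT, with 1.13 ± 0.31 in Bmal1hep-/- (adjusted p = 0.07) and 1.28 ± 0.31 in WT (adjusted p = 0.0265). Cebpb peaked at 13.4 h in Bmal1hep-/- (adjusted p = 0.00551, limma) and 16.3 h in WT (adjusted p = 0.00337). Ppp1r15a, called in WT and in the mean, peaked at 3.55 h in WT (adjusted p = 0.0115). The called genes of the list thus did not share 1 peak time. No gene of the list passed for a difference in rhythm.

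Several members share bases with another gene, and whether the counting used the strand is not stated, so reads of these genes may have been split or mixed. Hars and Hars2, for histidine, share 195 bases on opposite strands. Iars2 shares 2034 bases with Rab3gap2, Nars2 284 with an antisense RNA and Mars 67 with Ddit3 on opposite strands, and Aars 1326 with Exosc6 on the same strand. Iars matches a processed pseudogene at 96.0% identity, and Wars2 holds a stretch of 181 bases that matches A430046D13Rik at 90.6%. In all, 16 of 36 members had a match of at least 50 bases and 90% identity to another transcript.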

How the data were processed

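Polyadenylated RNA of 36 mouse gastrocnemius libraries was sequenced, and the authors deposited 1 table of FPKM values per gene symbol. Per the submitters' processing notes, FastQC 0.11.8 and STAR were used and the builds mm10 and GRCm39 are named. The tool that made the FPKM, the annotation, the use of strand and read totals are not stated in the sources used. Here, values were taken as log2(FPKM + 1) for the 10837 genes that averaged 1 FPKM or more over all libraries, and fold changes understate the change of low genes. Means of the 12 groups (24 residual degrees of freedom) and a 24 h cosine per genotype (30) were fitted with limma 3.58.1 (trend, robust) in R 4.3.3. Adjusted p-values are Benjamini-Hochberg values across the whole table, with a threshold of 0.05. The fits were tested on simulated data.

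Relative depth came from the FPKM worth of 1 read in 6015 low genes (89.8% of library pairs within 0.05 log2). Correlations used scipy 1.17.1, sequence matches BLAST 2.17.0 on GENCODE transcripts, and figures matplotlib 3.10.9. Members and gene lists were chosen with earlier results of these data known. Values were given for members past the threshold in any test, for the 4 of smallest p where fewer than 4 passed, for the 3 highest and 3 lowest members by level, and for enzyme pairs. Alternatives were another pseudocount, other filters, 2 rescalings, a replicate block, array weights, other rhythm fits and left-out libraries. Removal of the length trend was added after the data were seen. Same-numbered replicates of the 2 genotypes were not taken as pairs. The values of 1 partner gene are not reported here.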

Additional observations from a re-analysis of the deposited data

How the results depend on the processing

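Counts of 36 members were recomputed under each alternative. The genotype difference over all times and the difference in rhythm stayed at 0 members under every alternative run, leaving out each library included. Array weights, whose fit gave a convergence warning, called 6 members for a difference that varies with time, 13 calls at single times and 1 rhythm in WT, Lars2. The share of all tested genes called with these weights is not given here, so these counts are not read as a result about the members. The rhythm count in Bmal1hep-/- was 0 with a filter at 5 FPKM, with quantile normalization, with array weights, with time as a factor and with the libraries of that genotype alone, and 0 to 1 when each library was left out in turn. Adjusted p for Wars2 there was 0.0512 with quantile normalization, 0.122 with weights, 0.135 with time as a factor and 0.168 with its own genotype alone; at the 5 FPKM filter it was not tested. The count in the mean of both genotypes was 1 with a filter at 5 FPKM (Yars), 1 without the 6 libraries that stood apart (Wars2), 0 with time as a factor and 3 with array weights (Pars2 added, adjusted p = 0.0343). Removal of the length trend, chosen after seeing the data, changed no count. The causes were not tested. Relative depth fell to 58.0% of the deepest library, which limits members near 2 FPKM.

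With the replicate number as a block, the count was 0 for each genotype test and for the rhythm in WT, 1 for the rhythm in Bmal1hep-/- and 2 in the mean, as without it. Residuals of 18 same-numbered pairs correlated at -0.228 to 0.178, with 3 above 0.1. These values gave no sign that the numbers pair the samples, but they cannot exclude a weak pairing.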

Other observations

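After removal of the 12 group means, cytosolic synthetases varied together more than mitochondrial ones did, as a description over 36 libraries that share their source, with no test. The mean pairwise r was 0.214 among the 20 cytosolic members, 0.019 among 15 mitochondrial members without Lars2 and -0.0186 between both sets, beside 0.00659 over all tested genes. It was 0.242 among the 8 enzymes of the multi-synthetase complex and 0.247 among the 12 other cytosolic members. The sets were not matched for level. The median level was 27.5 FPKM in the cytosolic set, 7.98 FPKM in the 15 mitochondrial members and 7.6 FPKM over all tested genes. Among cytosolic members the highest pair was Eprs with Iars at 0.838, followed by Iars with Lars at 0.81, and the lowest were Eprs with Kars at -0.668 and Rars with Vars at -0.601. After removal of the trend with transcript length these were 0.643, 0.704, -0.449 and -0.689, and the mean among cytosolic members was 0.194. Some pairs across the sets were as strong: mitochondrial Iars2 had 0.77 with Eprs, 0.747 with Lars and 0.733 with Iars. After that removal these were 0.428, 0.506 and 0.317. Lars with mitochondrial Sars2 was at -0.591 before it and -0.41 after it. Levels of Eprs, Iars, Iars2 and Lars ran with the length trend of the libraries (r of 0.717, 0.696, 0.631 and 0.574). Those of Kars, Aars2, Sars2 and Farsa ran against it as strongly (r of -0.734, -0.693, -0.635 and -0.61).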
